A study of Homo sapiens with 4 samples.

Results

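Kindlins and talins are the cytoplasmic proteins that bind the tails of integrin beta subunits and switch integrins to the state that holds matrix ligands. The rows of their 5 genes (FERMT1, FERMT2, FERMT3, TLN1 and TLN2) were taken by gene symbol out of 57879 genes, and the estimated counts of each gene's transcripts were summed. The genes were selected on their measured counts in the comparison of TET1-CD with control cells, in which members of the family had different values. Their values in that comparison are therefore given as a description, with no test.

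Talin binds the beta tail through its head domain and ties it to actin through its rod, and kindlin binds a separate site on the same tail and recruits adaptors such as ILK and paxillin. FERMT1 encodes kindlin-1 of epithelia, whose loss causes Kindler syndrome, and FERMT2 encodes kindlin-2, which most solid tissues use. FERMT3 encodes kindlin-3, known from leukocytes and platelets, whose loss causes a leukocyte adhesion deficiency with bleeding. TLN1 encodes talin-1, found in nearly all cells, and TLN2 encodes talin-2, best known from muscle and brain.

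The RNAseq libraries came from T24, a bladder carcinoma line of human origin, grown in RPMI with 10% FCS. Control cells carried an empty lentiviral vector, and TET1-CD cells expressed the FLAG-tagged catalytic domain of the TET1 dioxygenase, which oxidises 5-methylcytosine in DNA. Both were puromycin-selected stable populations, and both carry the word "induced" in their source name, which the sources used here do not explain. There were 2 libraries in each group, and nothing says that they came from separate cultures, so a p-value measures only the spread between these libraries.

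The libraries held 17442143 to 20295266 fragments, and the totals of the groups overlapped. TET1 had 111 and 83 counts in control cells, against 2939 and 3310 counts in TET1-CD cells. Both libraries labelled TET1-CD were thus far above both control libraries (log2 fold change 5.02, with a standard error, SE, of 0.08). Reads of the introduced domain and of the cells' own gene are counted together. Of the 14573 genes with enough counts for a test, edgeR's quasi-likelihood test with Benjamini-Hochberg adjustment called 1464 higher and 1401 lower in TET1-CD cells. The median log2 fold change over these genes was 0.001. The calls were 433 higher and 399 lower without TET1-CD replicate 1, and 520 and 494 without TET1-CD replicate 2.

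FERMT3 was the member with the widest gap between the groups. Its gene (ENSG00000149781) lies on the plus strand of chromosome 11 of GRCh37, at chr11:63974150-63991354 in the files. It had 5 and 4 counts in control replicates 1 and 2, and 343 and 335 counts in TET1-CD replicates 1 and 2. Both control libraries were close to the floor, a fixed setting of 3 counts, and both TET1-CD libraries were far above it. After scaling to the effective library size (normalized counts), the control mean was 4.47 ± 0.210 and the TET1-CD mean 342 ± 32.5 (SD, n = 2 each). On the log2 scale the fold change was 6.21 (SE 0.22), which is 74.3-fold. The summed counts, 9 in control and 678 in TET1-CD cells, gave a ratio of 76.1 after scaling to library size. The 95% interval of this ratio for counting error alone was wide, from 39.9 to 167, and does not include the spread between libraries. The SE of 0.22 comes from the F statistic of the fit and is smaller than this counting error, so it overstates the precision of the fold change. FERMT3 ranked 17 from the top of 14573 genes by log2 fold change, and it passed the filter on low counts only through the TET1-CD libraries. Where a gene's count differs in bulk RNA, more cells expressing it and more RNA per cell cannot be told apart.

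Nearly all FERMT3 fragments in TET1-CD cells were assigned to a single coding model. The files list 9 FERMT3 transcripts, of which 7 had a count in some library. ENST00000345728, a coding form of 15 exons, held 324.5 and 311.9 of the counts in the TET1-CD libraries, or 94.6% and 93.1% of the gene. ENST00000279227, another coding model of 15 exons, was assigned 9.9 and 9.8 counts there, or 2.89% and 2.92%. ENST00000544997, also a coding model of 15 exons, was assigned 4.5 and 7.0 counts, and ENST00000541252, with 14 exons, 4.1 and 5.1. Each of these 3 models was thus assigned at most 2.92% of the gene in a TET1-CD library. In control replicate 2 all 4.0 counts were on ENST00000345728, whereas in control replicate 1 only 1.5 were, and 2.7 were on ENST00000545896 and 0.8 on ENST00000540957, short models that begin inside the gene. At such counts no form can be compared between the groups. The sequences of the 2 models with most counts in TET1-CD cells are shown where their coding parts differ. They differ by 12 coding bases at the start of exon 10, at chr11:63987351-63987362 on the plus strand, which are given in capitals below with 15 bases on each side, read from GENCODE 44 transcripts on GRCh37. The models also begin at different bases, so the assigned counts do not measure the use of exon 10.
ENST00000279227: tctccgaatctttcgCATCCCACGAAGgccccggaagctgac
ENST00000345728: tctccgaatctttcggccccggaagctgac

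In the TET1-CD libraries the FERMT3 fragments were also assigned mainly to transcripts that begin at the upstream end of the gene. The 4 transcripts that begin there summed to 1.5 and 4.0 counts in control and 338.9 and 328.7 in TET1-CD cells. The start of ENST00000541252, which lies 1051 bp downstream, had 0 and 0 counts in control and 4.1 and 5.1 in TET1-CD cells. The other 4 transcripts, which begin inside the gene, held 3.5 counts in control replicate 1, more than the 1.5 of the upstream start. They held at most 1.2 in any other library. Short reads shared by these forms were divided among them by estimation, so the use of a start was not measured directly.

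Because TET1 acts on methylated CG dinucleotides, the windows from 250 bases before to 50 bases after the RefSeq start sites were searched for the letters CG. Windows were found for 4 of the 5 genes, with 2 for FERMT3, and FERMT1 had no window. Among 35116 RefSeq windows of 300 bases, the median was 14 CG, with quartiles of 4 and 28. The window at the upstream start of FERMT3 held 9 CG, and 43.6% of all windows held as few. The window at the downstream start held 15, and 52.5% of all windows held as few. FERMT3 starts were therefore near the middle of all promoters. The windows of FERMT2, TLN1 and TLN2 held more CG, with 43, 31 and 45, counts that 4.98%, 20.7% and 3.48% of all windows reached. The TLN2 window has its start at chr15:62682749, near that of ENST00000561322 at 62682725, which had 0 counts in all 4 libraries. ENST00000561311, with most TLN2 counts in control replicate 2 and both TET1-CD libraries, begins elsewhere, at 62853564. Methylation was not measured in these libraries, and these counts describe the sequence alone. The bases before the start of ENST00000345728 of FERMT3 and of ENST00000341590 of FERMT2 are shown with each CG in capitals, as the member with the widest gap between groups beside the most abundant kindlin. The sequences are RefSeq's for GRCh38.p14 and were placed on GRCh37 by an exact match, at chr11:63973943-63974192 on the plus strand for FERMT3 and chr14:53417769-53418018 on the minus strand for FERMT2. The FERMT3 stretch holds 8 CG and the FERMT2 stretch 36.
FERMT3: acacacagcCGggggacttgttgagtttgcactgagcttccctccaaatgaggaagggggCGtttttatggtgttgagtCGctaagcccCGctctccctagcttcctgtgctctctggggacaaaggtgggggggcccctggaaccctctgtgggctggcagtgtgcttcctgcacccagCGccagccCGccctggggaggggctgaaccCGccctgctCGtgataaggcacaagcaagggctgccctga
FERMT2: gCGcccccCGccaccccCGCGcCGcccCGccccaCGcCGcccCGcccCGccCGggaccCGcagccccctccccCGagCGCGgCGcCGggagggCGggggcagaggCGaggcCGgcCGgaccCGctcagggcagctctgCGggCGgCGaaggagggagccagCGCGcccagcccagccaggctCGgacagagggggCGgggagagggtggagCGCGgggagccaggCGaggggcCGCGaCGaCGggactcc

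FERMT2 was the most abundant kindlin in every library. It lies on the minus strand at chr14:53323986-53419153 (ENSG00000073712). Its counts were 2687 and 2348 in control and 2736 and 3006 in TET1-CD cells. Scaled to library size, these were 2479 and 2534 against 2912 and 2863 normalized counts, so that both TET1-CD libraries were above both control libraries. The log2 fold change was 0.20 (SE 0.05), or 1.15-fold. Of its 14 listed transcripts 10 had counts, and ENST00000341590, which encodes kindlin-2 in 15 exons, held between 92.7% and 95.6% of the gene in the 4 libraries. No other FERMT2 transcript reached 5% of the gene in any library.

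FERMT1 was the second kindlin of these cells. It lies on the minus strand at chr20:6055492-6104191 (ENSG00000101311). Its counts were 1261 and 1042 in control and 1322 and 1440 in TET1-CD cells, or 1164 and 1124 against 1407 and 1372 normalized counts. The TET1-CD libraries were again above both control libraries, with a log2 fold change of 0.28 (SE 0.06), 1.21-fold. Of 4 listed transcripts 3 had counts. ENST00000217289, the coding form, held 85.0% and 72.9% of the gene in control and 82.2% and 82.3% in TET1-CD cells. ENST00000478194, which has 7 exons and no defined coding region in GENCODE 44, held 13.9% and 24.3% in control and 17.1% and 16.5% in TET1-CD cells. Its share therefore varied more between the control libraries than between the groups.

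**Figure D1:**
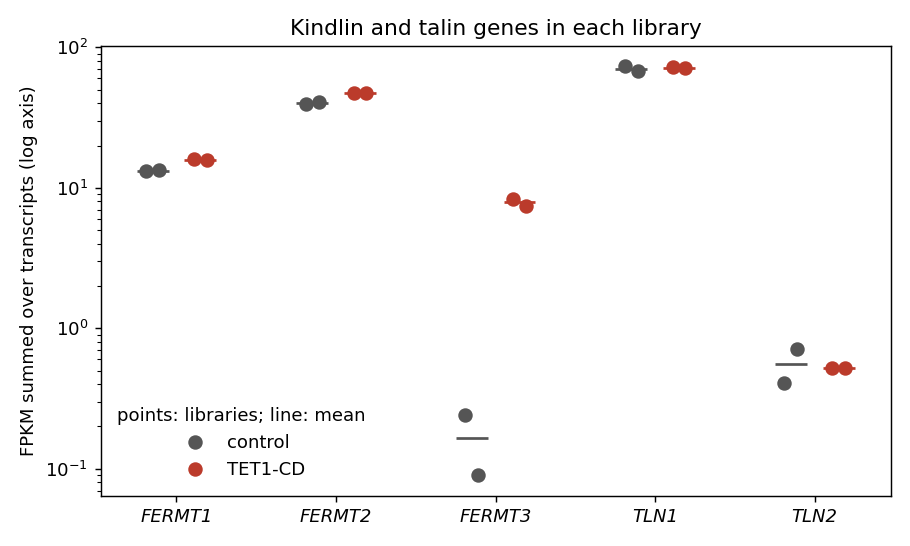
FPKM (fragments scaled to transcript length and library size, log axis) of the 5 genes, summed over transcripts, with 1 point for each library and a line at the mean of each group. FERMT3 was at 0.24 and 0.09 in the control libraries and at 8.30 and 7.45 in the TET1-CD libraries, while TLN1 stayed between 67.7 and 73.2 in all 4.

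Levels of different genes were compared per length, as FPKM (fragments scaled to transcript length and library size) summed over transcripts. In control cells the order was TLN1 with 70.4 ± 3.90, FERMT2 with 40.2 ± 0.891, FERMT1 with 13.2 ± 0.191, TLN2 with 0.56 ± 0.212 and FERMT3 with 0.165 ± 0.106 FPKM (SD, n = 2 each). In this order the libraries of neighbouring genes did not overlap, the closest being 0.41 FPKM of TLN2 and 0.24 FPKM of FERMT3, both in control replicate 1. In TET1-CD cells the order was TLN1 with 71.7 ± 1.05, FERMT2 with 47.2 ± 0.134, FERMT1 with 15.9 ± 0.276 and FERMT3 with 7.88 ± 0.601 FPKM (SD, n = 2 each), and TLN2 was at 0.52 FPKM in both libraries. FERMT3 thus stood below TLN2 in control cells and above it in TET1-CD cells, and the other genes kept their order. Among the 14573 genes tested, FERMT3 went from the 2.06 percentile of mean FPKM to the 45.6 percentile. FERMT2 stood at the 84.6 and 86.8 percentiles, FERMT1 at 57.9 and 62.4, TLN1 at 91.8 in both groups and TLN2 at 9.12 and 7.75.

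The sum of the 3 kindlins was higher in the TET1-CD libraries, and FERMT3 was a minor part of the sum but not of its rise. The sum was 52.9 and 54.3 FPKM in control and 71.7 and 70.3 FPKM in TET1-CD cells. From control to TET1-CD cells, mean FPKM went from 0.165 to 7.88 for FERMT3, from 40.2 to 47.2 for FERMT2 and from 13.2 to 15.9 for FERMT1. FERMT3 and FERMT2 thus added similar amounts, and FERMT1 added less. FERMT3 made up 0.454% and 0.166% of this sum in control and 11.6% and 10.6% in TET1-CD cells. FERMT2 made up 74.8% and 75.2% in control and 66.0% and 67.0% in TET1-CD cells, and FERMT1 24.7% and 24.6% against 22.5% and 22.4%. FERMT2 thus held the largest share in all 4 libraries. The FERMT3 level of control replicate 1 rests partly on short transcripts, which give a higher FPKM for a fragment.

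**Figure D2:**
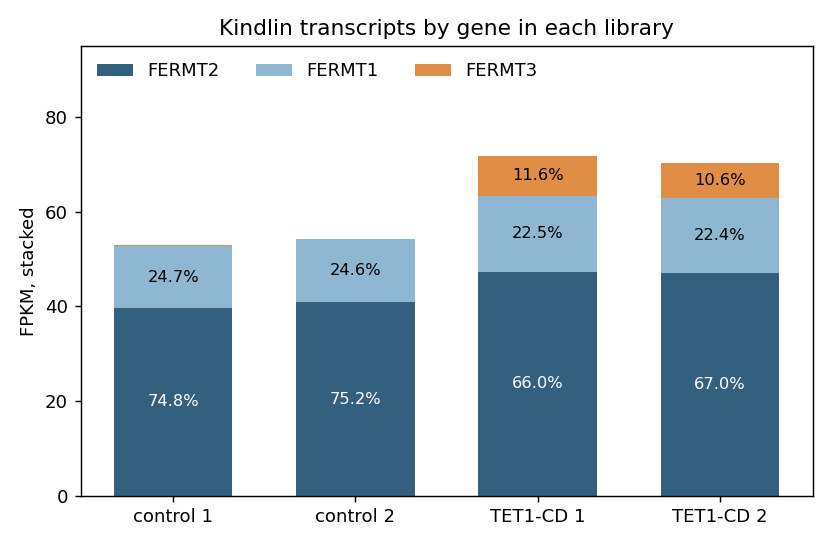
Stacked FPKM of FERMT2, FERMT1 and FERMT3 in each of the 4 libraries, with each gene's share of the stack in percent. The stack reached 52.9 and 54.3 FPKM in the control libraries and 71.7 and 70.3 FPKM in the TET1-CD libraries, where FERMT3 held 11.6% and 10.6%.

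TLN1 was the most abundant member and had nearly the same level in both groups. It lies on the minus strand at chr9:35696945-35732392 (ENSG00000137076). Its counts were 12039 and 9131 in control and 10091 and 11083 in TET1-CD cells, or 11110 and 9853 against 10740 and 10560 normalized counts. The TET1-CD libraries lay between the control libraries, with a log2 fold change of 0.02 (SE 0.06). Its single main transcript, ENST00000314888 with 57 exons and 8623 bases, held between 99.1% and 99.4% of the gene in each library, and 5 of 9 listed transcripts had a count.

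TLN2 was expressed at a low level in both groups. It lies on the plus strand at chr15:62682725-63136830 (ENSG00000171914). Its counts were 65 and 57 in control and 58 and 68 in TET1-CD cells, or 60.0 and 61.5 against 61.7 and 64.8 normalized counts. The groups were separated only by the gap between 61.5 and 61.7, which is smaller than the spread within either group, and the log2 fold change was 0.06 (SE 0.20). As the ratio of mean FPKM the log2 value was -0.11, so the sign depends on the unit. TLN2 was 0.557% and 1.04% of the talin FPKM in control and 0.713% and 0.728% in TET1-CD cells, and talin-1 made up the rest.

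The TLN2 counts were assigned to different transcripts in control replicate 1 and in the other libraries. ENST00000306829 held 54.9 counts in control replicate 1, or 84.5% of the gene, and at most 0.99% elsewhere. ENST00000561311, a coding form of 58 exons, held 0.04% there and 65.2%, 72.3% and 69.5% in control replicate 2 and TET1-CD replicates 1 and 2. These shares set 1 control library apart from the other control library and from both TET1-CD libraries, so they do not follow the groups. ENST00000494733 held 5.99%, 14.8%, 15.1% and 22.5% in the same order, and ENST00000472902 held 9.47%, 11.6%, 10.6% and 7.17%. ENST00000306829 is not among the models of GENCODE 44.

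Normalized counts of the groups did not overlap for 4 of the 5 genes, with the TET1-CD libraries higher in each (FERMT1, FERMT2, FERMT3 and TLN2). Among all genes tested, 61.0% had groups that did not overlap in either direction with the TET1-CD libraries higher for 30.8% and lower for 30.2%. A fold change of at least 2 without a test was reached by FERMT3 alone among the 5, against 5.31% of all genes, with 3.60% up and 1.72% down in the TET1-CD libraries. The log2 fold change of FERMT3 was between 6.12 and 6.31 when any 1 library was left out, that of FERMT1 between 0.25 and 0.30 and that of FERMT2 between 0.18 and 0.22.

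The remaining genes of integrin activation were taken from a list of 68 symbols in 6 roles, written by hand without the kindlins and talins. The list was chosen with earlier results of these data known. The shares called in it and in its roles, beside those of all genes, are therefore a description and no independent support. In the files the list had 69 genes, since ITGB3 stands under 2 identifiers, and 53 of them had enough counts for a test. By edgeR's test 17 rose and 4 fell in TET1-CD cells, 39.6% of those tested, where 19.7% of all genes tested were called (10.0% higher and 9.61% lower). The median log2 fold change of the list was 0.06. A change of at least 2-fold with the call was found for ITGB4, LIMS2 and PARVG, which rose, and for ITGAM and ITGB8, which fell, against 3.77% of all genes (2.72% higher and 1.04% lower). The list had 6 higher and 1 lower without TET1-CD replicate 1, without TET1-CD replicate 2 it had 7 and 1, and without control replicate 2 it had 8 lower.

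The adaptors that kindlins bring to the beta tail were the role with most calls. Of 11 adaptors tested 7 rose and 0 fell by edgeR, or 63.6% called in either direction, against 19.7% of all genes. An unadjusted p of 0.05 was passed by 8 of them in either direction, against 33.2% of all genes, and 6 passed with DESeq2, against 11.9%. Their median log2 fold change was 0.24. PARVG (gamma-parvin, the parvin of blood cells) had 8 and 4 counts in control and 60 and 53 in TET1-CD cells, a log2 fold change of 3.23 (SE 0.38, adjusted p = 4.02e-04 by edgeR). Both TET1-CD libraries were well above both control libraries, and the adjusted p by edgeR was at most 0.00999 without any 1 library. PARVG passed the filter on low counts only through the TET1-CD libraries, as FERMT3 did, and was not tested with 10 counts required in every library. LIMS2 (PINCH-2, which pairs with ILK) had 12 and 21 counts in control and 46 and 48 in TET1-CD cells, a log2 fold change of 1.51 (SE 0.35, adjusted p = 0.0153 by edgeR). PXN (paxillin) had 6831 and 5478 counts in control and 7271 and 7918 in TET1-CD cells, a log2 fold change of 0.32 (adjusted p = 0.00315 by edgeR). ILK, the scaffold that kindlin-2 recruits, had 4156 and 3674 against 4300 and 4869 counts and a log2 fold change of 0.24 (adjusted p = 0.0106 by edgeR). These changes were small beside those of PARVG and LIMS2. LIMS1 (PINCH-1) had a log2 fold change of 0.28 (adjusted p = 0.00976 by edgeR).

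The other adaptors that rose were LPXN (leupaxin), by 0.92 on the log2 scale, and RSU1, a partner of PINCH-1, by 0.23, with adjusted p of 0.013 and 0.0372 by edgeR. They were named after their values were seen. The 4 adaptors that did not pass were PARVB, TGFB1I1, FBLIM1 and PARVA, with log2 fold changes of 0.21, 0.09, 0.05 and -0.03. Without TET1-CD replicate 1 the adjusted p by edgeR was 0.096 for PXN, 0.172 for LIMS1, 0.154 for ILK, 0.42 for RSU1 and 0.129 for LIMS2. Without TET1-CD replicate 2 it was 0.0511 for PXN, 0.0725 for LIMS1, 0.174 for ILK, 0.0784 for RSU1, 0.0891 for LIMS2 and 0.118 for LPXN, without control replicate 1 it was 0.06 for LIMS2, and by DESeq2 it was 0.0681 for RSU1. The adaptors called higher were then 2 without TET1-CD replicate 1 and 1 without TET1-CD replicate 2.

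**Figure D3:**
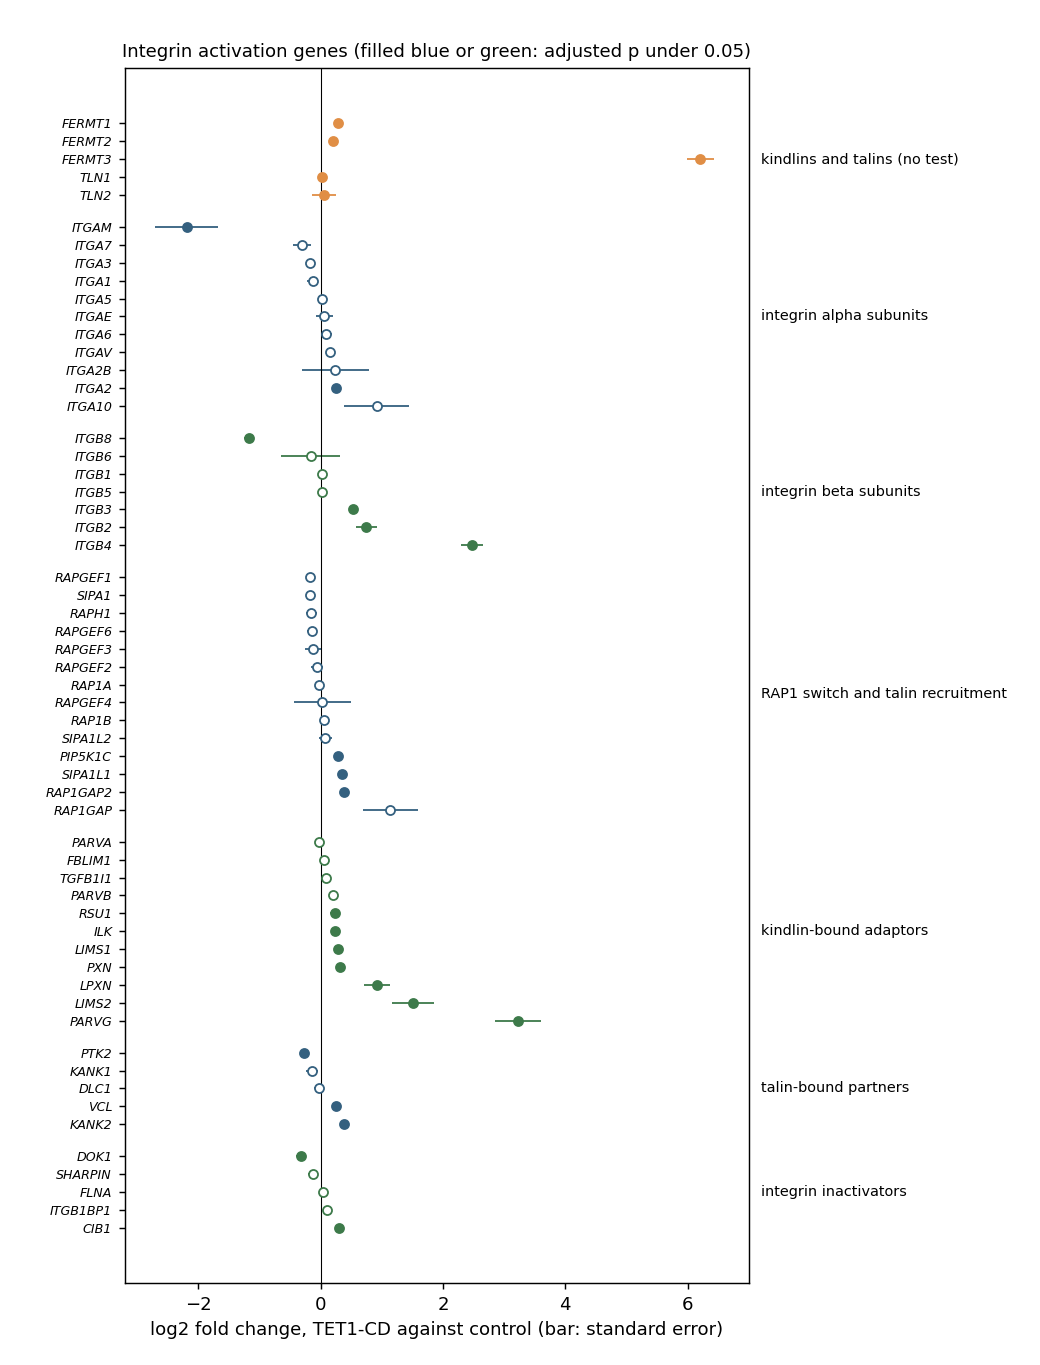
Log2 fold change of TET1-CD against control cells with its standard error for the kindlins and talins (orange, no test) and for the 53 tested genes of the integrin activation list by role, filled where the adjusted p by edgeR was under 0.05. FERMT3 stands at 6.21 and PARVG, the next highest, at 3.23, while the other kindlins and talins lie between 0.02 and 0.28.

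The integrin beta subunits, whose tails the kindlins and talins bind, changed in both directions. Of 7 tested, 3 rose and 1 fell by edgeR, or 57.1% against 19.7% of all genes. ITGB4, the laminin-binding subunit of hemidesmosomes, had 92 and 53 counts in control and 333 and 462 in TET1-CD cells, a log2 fold change of 2.47 (SE 0.18, adjusted p = 1.57e-05 by edgeR). ITGB8, a partner of the alpha-v subunit, had 804 and 669 counts in control and 302 and 345 in TET1-CD cells, a log2 fold change of -1.17 (SE 0.08, adjusted p = 1.36e-05 by edgeR). Each of the 2 genes kept the groups apart without overlap in normalized counts, as 61.0% of all genes tested did in either direction. ITGB3, another partner of alpha-v, had 809 and 712 counts against 1054 and 1125 and rose by 0.53 on the log2 scale (adjusted p = 5.14e-04 by edgeR). ITGB2, the subunit of leukocyte integrins, had 70 and 57 counts against 94 and 117 and a log2 fold change of 0.75 (adjusted p = 0.0147 by edgeR and 0.103 by DESeq2). Its adjusted p by edgeR was 0.0724 without TET1-CD replicate 1 and 0.14 without TET1-CD replicate 2. ITGB1, the beta subunit with most counts, chosen after its values were seen, had 27996 and 20927 counts in control and 23727 and 25121 in TET1-CD cells (log2 fold change 0.02).

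Among the integrin alpha subunits 11 were tested, and by edgeR 1 rose and 1 fell, or 18.2% against 19.7% of all genes. ITGA2, a collagen-binding subunit, had 4724 and 3865 counts in control and 4601 and 5476 in TET1-CD cells and a log2 fold change of 0.25 (adjusted p = 0.014 by edgeR). ITGAM, the alpha-M subunit of myeloid cells, had 22 and 29 counts in control and 3 and 8 in TET1-CD cells and a log2 fold change of -2.19 (SE 0.52, adjusted p = 0.0165 by edgeR). The counts of ITGAM are low, and it passed the filter on low counts only through the control libraries. It too was not tested with 10 counts required in every library. The counts of ITGA2 overlap before scaling. Without TET1-CD replicate 1 the adjusted p by edgeR was 0.102 for ITGA2 and 0.172 for ITGAM, without TET1-CD replicate 2 it was 0.246 and 0.0533, and without control replicate 2 it was 0.0553 for ITGAM. ITGA3 and ITGAV had log2 fold changes of -0.17 and 0.15, with adjusted p of 0.0529 and 0.0809 by edgeR. ITGA3, a laminin-binding subunit, passed by edgeR with no filter (adjusted p = 0.0162), with the replicate block (0.0415), without control replicate 1 (0.0318) and without control replicate 2 (0.00141), and also by DESeq2 (0.0436) and limma-voom (0.0403). ITGAV passed by edgeR without control replicate 1 (adjusted p = 0.0106). The role had 0 calls without either TET1-CD library, where 4 of its genes passed an unadjusted p of 0.05 with all 4 libraries (33.2% of all genes did), and without control replicate 1 it had 3 higher and 2 lower.

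The genes of the RAP1 switch, the small GTPase route that brings talin to the membrane, were called about as often as all genes. Of 14 tested 3 rose and 0 fell by edgeR, or 21.4% against 19.7% of all genes. An unadjusted p of 0.05 was passed by 6 in either direction, against 33.2% of all genes, and 3 passed with DESeq2, against 11.9%. RAP1GAP2 and SIPA1L1, both RAP1 inactivators, had log2 fold changes of 0.39 and 0.35 (adjusted p = 0.00275 and 0.0024 by edgeR), and PIP5K1C, which makes the lipid that talin binds, had 0.29 (adjusted p = 0.0178 by edgeR). The adjusted p by edgeR was 0.0527 for SIPA1L1 and 0.291 for PIP5K1C without TET1-CD replicate 1. RAPGEF1, a RAP1 activator, had a log2 fold change of -0.17 (adjusted p = 0.0866 by edgeR, and 0.00312 without control replicate 2). The role had 1 gene called higher without TET1-CD replicate 1 and 4 called lower without control replicate 2. APBB1IP, the adaptor RIAM that joins RAP1 to talin in leukocytes, had 0, 0, 0 and 3 counts, and RASGRP2, the RAP1 activator of platelets, had 1, 1, 3 and 6, in the order control replicates 1 and 2 and TET1-CD replicates 1 and 2. Both were chosen after their values were seen, and other genes of the list that are known from blood cells, such as PARVG, LPXN and ITGB2, had more counts.

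Of 5 talin-bound partners tested, 2 rose and 1 fell by edgeR, where 10.0% and 9.61% of all genes did. KANK2, which binds the talin rod, had a log2 fold change of 0.38 (adjusted p = 0.00145 by edgeR), and VCL (vinculin), which couples stretched talin to actin, had 11353 and 9011 counts in control and 11452 and 12399 in TET1-CD cells with 0.25 (adjusted p = 0.0137 by edgeR). PTK2, the focal adhesion kinase, had 5599 and 4853 counts in control and 4145 and 4413 in TET1-CD cells and a log2 fold change of -0.27 (adjusted p = 0.00644 by edgeR). KANK1 had -0.14 (adjusted p = 0.325 by edgeR). Of the 5 integrin inactivators tested, CIB1 rose by 0.30 on the log2 scale (adjusted p = 0.0066 by edgeR) and DOK1, which competes with talin for the beta tail, fell by 0.32 on the log2 scale (adjusted p = 0.0252 by edgeR and 0.087 by DESeq2). SHARPIN and ITGB1BP1 had log2 fold changes of -0.13 and 0.11 (adjusted p = 0.232 and 0.299 by edgeR). Without TET1-CD replicate 1 the adjusted p by edgeR was 0.234 for VCL, 0.0883 for PTK2, 0.0932 for CIB1 and 0.0955 for DOK1, and without TET1-CD replicate 2 it was 0.125, 0.165, 0.101 and 0.22, so that KANK2 alone of both roles was called without either library.

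The genes around FERMT3 did not share its gap between the groups. Within 100000 bp of the gene 23 genes are listed and 17 were tested, with a median log2 fold change of -0.04 and a range of -0.29 to 0.54. Only STIP1 was called by edgeR, or 5.88% against 19.7% of all genes, and 4 passed an unadjusted p of 0.05, against 33.2%. STIP1, a co-chaperone gene that ends 2135 bp upstream of FERMT3, had 7631 and 6401 counts in control and 8743 and 9318 in TET1-CD cells, a log2 fold change of 0.38 (SE 0.05, adjusted p = 0.00103 by edgeR, and 0.0534 without TET1-CD replicate 1). TRPT1, a tRNA-modifying enzyme gene on the minus strand, overlaps the 3' end of FERMT3 by 84 bp and had 355 and 303 counts in control and 246 and 288 in TET1-CD cells, a log2 fold change of -0.29 (adjusted p = 0.0677 by edgeR). Both neighbours were expressed in control cells, in which FERMT3 was near the floor. The sources used here do not state whether counting used strand, so fragments in the overlap may belong to either gene.

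**Figure D4:**
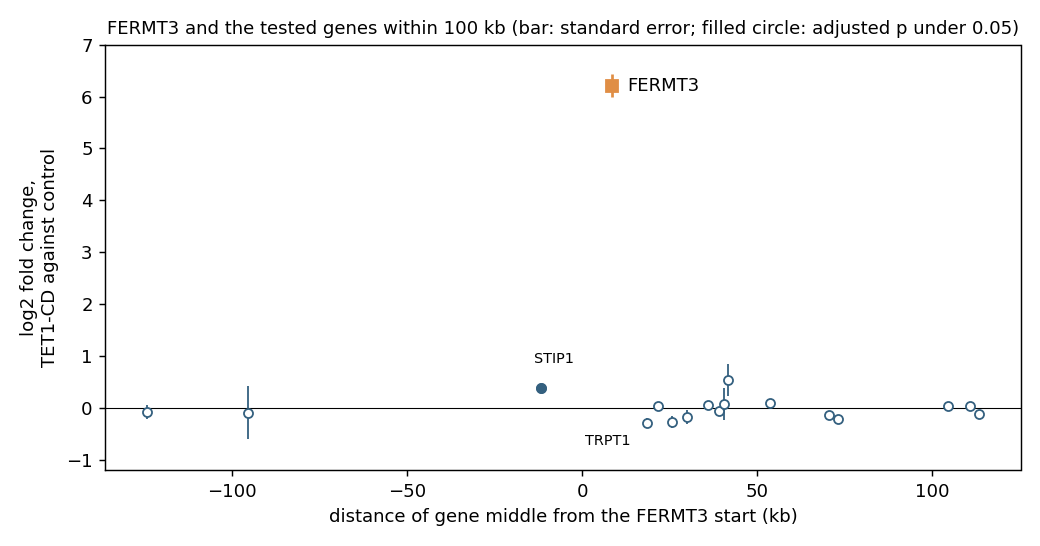
Log2 fold change of TET1-CD against control cells with its standard error for FERMT3 (square) and the 17 tested genes within 100 kb, by the distance of each gene's middle from the FERMT3 start in kb, with a filled circle where the adjusted p by edgeR was under 0.05. FERMT3 stands at 6.21, and the other genes lie between -0.29 and 0.54.

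Within 100000 bp of all 5 genes, 34 neighbours were tested, of which 3 rose (STIP1, MCM8 and NPR2) and 1 fell (LRRN4) by edgeR, or 11.8% against 19.7% of all genes. With the call and a fold change of at least 2 there were 0, where 1 passed an unadjusted p of 0.05 with that fold change and 0 did so by DESeq2 (4.89% and 2.64% of all genes). LRRN4, 20797 bp from FERMT1, had 642 and 509 counts in control and 305 and 351 in TET1-CD cells, a log2 fold change of -0.79 (SE 0.09, adjusted p = 3.01e-04 by edgeR), while FERMT1 had 0.28. MCM8, a DNA helicase gene also near FERMT1, had 0.26 (adjusted p = 0.0498 by edgeR and 0.0657 by DESeq2). NPR2, a natriuretic peptide receptor gene near TLN1, had 0.97 (adjusted p = 0.0182 by edgeR and 0.0945 by DESeq2). Without TET1-CD replicate 1 the adjusted p by edgeR was 0.224 for MCM8 and 0.0595 for NPR2, without TET1-CD replicate 2 it was 0.245 and 0.206, and without control replicate 2 it was 0.0917 for MCM8. CREB3, which overlaps TLN1 by 61 bp on the other strand, had 0.07 and TPM2, on the other side of TLN1, had 0.01 (adjusted p = 0.429 and 0.891 by edgeR). Of the 3 tested neighbours of FERMT2, 0 were called by edgeR, by an unadjusted p of 0.05 or by DESeq2, and no neighbour of TLN2 had enough counts for a test.

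Since FERMT3 is known from blood cells, markers of leukocytes and platelets were read beside it. The marker lists too were chosen with earlier results of these data known, so their calls are a description. Of 25 leukocyte markers, 5 (MS4A1, LCP2, CYBB, TYROBP and IKZF1) had 0 counts in all 4 libraries, and 13 were at or under 3 counts in all 4. PTPRC (CD45), which leukocytes share, had 2 and 0 counts in control and 2 and 0 in TET1-CD cells, and SPI1, a myeloid transcription factor, had 0 and 0 against 3 and 2. Others of the list were well expressed in both groups, with 3363 to 3863 counts of RAC2, 1635 to 3181 of LCP1, 475 to 615 of ARHGDIB and 215 to 491 of CORO1A in a library. The list was thus split between markers near 0 and markers that the cells of both groups expressed. The summed level of the list was 341 to 355 CPM (counts scaled to library size) in control and 447 to 458 in TET1-CD cells. Of the 9 leukocyte markers tested, 5 rose by edgeR (HCLS1, LAPTM5, CORO1A, LCP1 and ITGB2) and 1 fell (ITGAM), where 10.0% of all genes rose and 9.61% fell. HCLS1, the blood-cell relative of cortactin, had 57 and 47 counts in control and 397 and 392 in TET1-CD cells, a log2 fold change of 2.94 (SE 0.14, adjusted p = 6.44e-07 by edgeR). LAPTM5, a lysosomal membrane protein, and CORO1A and LCP1, both actin-binding proteins, had log2 fold changes of 1.07, 0.85 and 0.80. Of 13 platelet markers, 4 had 0 counts in all 4 libraries, and the list summed to 2.03 to 2.83 CPM in control and 2.51 to 2.55 in TET1-CD cells, so that the groups overlapped.

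Other markers were read to check the label. Keratins of simple epithelium were abundant, with 15981 to 22638 counts of KRT7 in a library, while KRT5 and KRT20, keratins of basal and umbrella urothelium, had 0. Of the 15 epithelial and urothelial markers 7 were at or under 3 counts in all 4 libraries. These included the basal factor TP63 and the uroplakins UPK1A, UPK1B and UPK3A of umbrella cells, and the uroplakin UPK2 had 1 to 6 counts. The epithelial and urothelial list summed to 2352 to 2371 CPM in control and 2642 to 2678 in TET1-CD cells. The fibroblast and smooth muscle list summed to 8.03 to 8.20 in control and 26.2 to 26.6 in TET1-CD cells. In it COL1A1 had 88 and 70 counts against 266 and 314, and ACTG2 had 39 and 36 against 152 and 145, while COL3A1, DCN, LUM, DES and PDGFRA had at most 4 counts in any library. The 7 endothelial markers with a row summed to 7.51 to 8.55 against 10.4 to 10.6. Each of these 3 sums was thus higher in both TET1-CD libraries, as FERMT3 was, and their part in the FERMT3 result was not tested. A few genes carried the sums. Mean normalized counts went from 17130 in control to 21710 in TET1-CD cells for KRT7, and from 14500 to 13760 for KRT8. Of the 7 epithelial and urothelial markers tested, 6 had a positive log2 fold change. Among endothelial markers ROBO4 went from 122.5 to 166.0, and the 2 tested were positive. VWF, KDR and TIE1, not tested, had lower means in TET1-CD cells, and CLDN5 a higher one.

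The protein-coding genes whose pattern over the 4 libraries was most like that of FERMT3 were found by the Euclidean distance of centred log2 CPM. The nearest was SELM, a selenoprotein of the endoplasmic reticulum, at a distance of 0.265, with 17 and 18 counts in control and 967 and 1046 in TET1-CD cells. CTAG2 and MAGEC2, both cancer/testis antigens normally expressed in germ cells, followed at 0.323 and 0.406. CTAG2 was listed at 0 in both control libraries and had 109 and 134 counts in TET1-CD cells, and MAGEC2 was at 0 and 0 against 111 and 144. SLC14A1, a urea transporter, was at 0 and 0 against 64 and 67 counts, at a distance of 0.651. TET1 itself was the fifth, at 0.744. The fitted log2 fold changes were 5.85 for SELM, 9.93 for CTAG2, 10.0 for MAGEC2, 9.05 for SLC14A1 and 5.02 for TET1. That of FERMT3 was 6.21. CTAG2, MAGEC2 and SLC14A1 passed the filter on low counts only through the TET1-CD libraries, and their distances depend on the prior count of 2. None of the 5 is a gene of integrin activation in the list used here.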

How the data were processed

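RNAseq of 2 control and 2 TET1-CD libraries of T24 cells was used. The authors deposited, for each of 195700 transcripts and each library, expected counts, which are estimated fragments that need not be whole, and FPKM values, which are scaled to transcript length and library size, on GRCh37 coordinates. The submitters' processing notes name cutadapt 1.9.1, HISAT2 2.0.1, HTSeq 0.6.1, DESeq2 and hg19. The tool that divided fragments among transcripts, the annotation release and the strand setting are not given in the sources used here. Fragments shared by transcripts were divided by estimation, which limits statements on single forms.

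The deposited counts were summed per gene and rounded. The groups were compared in R 4.3.3 by edgeR 4.0.16, with filterByExpr, TMM factors, glmQLFit without a block, glmQLFTest and Benjamini-Hochberg adjustment over the 14573 genes tested. TMM factors were 0.993 to 1.005. A standard error is the size of the log2 fold change over the root of its F statistic. At the few control counts of FERMT3 it is smaller than the counting error. A call is an adjusted p under 0.05. Levels are FPKM summed over transcripts. CPM on the log2 scale used a prior count of 2 for the likeness of patterns. The script was tested on simulated data. The floor of 3 counts was a fixed setting, meant for counting error only, and libraries also hold values below it.

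The kindlin and talin genes and the gene lists were chosen with earlier results of these data known. The genes named are TET1, the 5 members with transcripts holding at least 5% of a gene in any library, in each of 6 roles up to 4 genes with the smallest p and those called with a fold change of at least 2, the nearest neighbours and those called with such a fold change, the 5 genes most like FERMT3, and members of counts of 5 or fewer. The alternatives were DESeq2 1.42.0, limma-voom (limma 3.58.1), scaling by RLE or by library size only, no filter on low counts, a minimum of 10 counts in every library, the ratio of mean FPKM, a replicate block and leaving out each library. One listed marker, PECAM1, has no row under that symbol and was not analysed here.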

Additional observations from a re-analysis of the deposited data

How the results depend on the processing

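With 2 libraries in each group, the spread of a single gene is poorly known, and edgeR borrows it from all genes. The log2 fold change of FERMT2 was 0.23 as the ratio of mean FPKM, and 0.18 to 0.22 with a library left out. That of FERMT3 was 6.10 by limma-voom and 5.58 as the ratio of mean FPKM, where control replicate 1 counts short transcripts, and it had no value with 10 counts in every library, which removed the gene. That of TLN2 turned to -0.11 as the ratio of mean FPKM. Over all genes, DESeq2 called 887 higher and 852 lower, and leaving out a library gave 433 to 1880 higher and 399 to 1903 lower. Integrin activation genes called higher were 6 to 19 and called lower 1 to 8 with a library left out. Neighbours called higher were 1 by DESeq2 and 0 to 3 with a library left out, and neighbours called lower were 2 with no filter, 2 with 10 counts in every library and 1 to 3 with a library left out. The causes were not tested. The sources used here do not say whether same-numbered libraries were prepared together. Their deviations from the group means had a correlation of 0.007 across 14573 genes. This single value over all genes cannot show whether they were paired. With the replicate number as a block, edgeR called 1622 genes higher and 1613 lower. Blocking on the replicate number, the log2 fold changes were 0.28 for FERMT1, 0.20 for FERMT2, 6.22 for FERMT3, 0.03 for TLN1 and 0.06 for TLN2. TPM2, which was not called, had -0.02 to 0.04 with a library left out, below 0 without control replicate 1 and without TET1-CD replicate 1. Of the other values for single genes and roles under an alternative, 40 lost the call, 8 gained it and 24 counts moved by more than 1.5 times, while 474 did none of these.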
